A study of Caenorhabditis elegans with 2 samples.

Results

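MicroRNA (miRNA) genes of Caenorhabditis elegans were taken as all 261 genes of biotype miRNA among the 46926 genes of the Ensembl annotation of WBcel235. Each was read for a LIR-3-GFP peak summit from 500 bp upstream to 200 bp downstream of the annotated gene start. Of the 261 genes, 106 lay wholly inside a protein-coding gene on either strand and are called nested. A further 152 overlapped no protein-coding gene and are called intergenic, and 3 overlapped one in part.

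The study mapped where LIR-3, a zinc-finger protein, sits on the genome, by sequencing the DNA recovered with it from chromatin (ChIP-seq). The animals were whole hermaphrodite L4 larvae of strain OP312, with genotype unc-119(ed3) III and the insertion wgIs312, collected 48 hours after synchronization by L1 starvation following bleaching. The strain stably expresses LIR-3 with a GFP-FLAG tag at its C-terminus, and the immunoprecipitation used an antibody to GFP. The 2 biological replicates form 1 group, so the comparisons are between kinds of genes and between the replicates. In whole animals, occupancy in few cells and weak occupancy in many cells cannot be told apart.

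A miRNA is a short RNA cut from a hairpin in a longer primary transcript, first by Drosha in the nucleus and then by Dicer in the cytoplasm. Loaded into an Argonaute protein, it pairs with target messenger RNAs mainly through its seed, bases 2 to 8, and lowers their translation or stability. In C. elegans lin-4 and the let-7 family time larval development, and the mir-35 and mir-51 families are needed in the embryo. Most miRNA genes are transcribed by RNA polymerase II, and many lie in introns or in clusters that can be cut from 1 transcript.

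The mature miRNAs of the genes that the results turn on are given first, from RefSeq WBcel235, with the seed in capitals. They are shown because the 6 genes with the seed ACCCGUA, the mir-51 family, hold 3 of the 7 miRNA genes that passed the submitters' strictest peak list. In mir-51, mir-52 and mir-53 the seed is on the 5′ arm of the hairpin, and in mir-54, mir-55 and mir-56 it is on the 3′ arm.
mir-51: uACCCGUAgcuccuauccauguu
mir-52: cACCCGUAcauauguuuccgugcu
mir-53: cACCCGUAcauuuguuuccgugcu
mir-54: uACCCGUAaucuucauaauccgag
mir-55: uACCCGUAuaaguuucugcugag
mir-56: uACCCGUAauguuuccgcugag

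The let-7 family is shown for mir-241, which also had a peak in that list, and lin-4 for comparison.
let-7: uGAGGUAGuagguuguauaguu
mir-48: uGAGGUAGgcucaguagaugcga
mir-84: uGAGGUAGuauguaauauuguaga
mir-241: uGAGGUAGgugcgagaaauga
lin-4: uCCCUGAGaccucaaguguga

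The mir-35 family, here represented by 3 of its 8 genes, is shown because nearly all of its genes had a summit, at lower signal values, and mir-80, mir-4936 and mir-2214 as the other genes in the strictest list.
mir-35: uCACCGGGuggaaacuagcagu
mir-38: uCACCGGGagaaaaacuggagu
mir-42: uCACCGGGuuaacaucuacaga
mir-80: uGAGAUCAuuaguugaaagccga
mir-4936: uGCUUUGUggcuuugcuggua
mir-2214-5p: aUUCGGUCcggagucaauggg

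The DNA around the 6 summits of that list follows, 151 bases each, written 5′ to 3′ on the strand of the miRNA gene with the summit at the centre (RefSeq WBcel235, whose coordinates are those of ce11). Capitals mark a match to the B box of tRNA genes, spelled GTTCGANNC or GTTCAANNC, which was searched on both strands.
mir-4936, chrIII:3249150-3249300, plus strand: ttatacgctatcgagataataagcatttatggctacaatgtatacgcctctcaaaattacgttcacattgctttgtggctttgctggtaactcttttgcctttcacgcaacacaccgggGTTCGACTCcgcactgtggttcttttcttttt
mir-241, chrV:14366707-14366857, minus strand: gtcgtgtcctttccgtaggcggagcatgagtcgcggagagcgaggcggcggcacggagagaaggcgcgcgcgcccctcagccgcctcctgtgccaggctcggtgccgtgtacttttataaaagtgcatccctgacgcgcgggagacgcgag
mir-54 and mir-55, chrX:13145235-13145385, minus strand: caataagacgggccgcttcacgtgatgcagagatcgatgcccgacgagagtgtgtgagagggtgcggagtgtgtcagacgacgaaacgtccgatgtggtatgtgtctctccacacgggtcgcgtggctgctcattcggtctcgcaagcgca
mir-80, chrIII:8865408-8865558, minus strand: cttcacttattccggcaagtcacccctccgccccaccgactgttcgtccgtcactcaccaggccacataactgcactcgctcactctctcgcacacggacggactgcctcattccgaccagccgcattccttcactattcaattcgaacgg
mir-51, chrIV:11026085-11026235, minus strand: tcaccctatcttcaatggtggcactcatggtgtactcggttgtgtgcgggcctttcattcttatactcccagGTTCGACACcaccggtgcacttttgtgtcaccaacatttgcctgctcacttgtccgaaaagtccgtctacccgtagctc
mir-2214, chrIII:7278638-7278788, plus strand: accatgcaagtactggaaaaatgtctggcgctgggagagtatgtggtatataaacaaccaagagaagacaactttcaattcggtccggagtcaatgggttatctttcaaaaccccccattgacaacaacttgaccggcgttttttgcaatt

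The 4 deposited peak lists on build ce11 differ in strictness. The relaxed lists, into which background regions were admitted on purpose, had 17311 peaks for replicate 1, 20601 for replicate 2 and 20360 for the pooled replicates. The submitters' optimal list by the irreproducible discovery rate (IDR) had 552 peaks. Read depth is unknown, since only peaks are listed and not reads. Each peak's signal value is the authors' score, of unstated scale, and is compared only within a list. A rank percentile of 100 marks the strongest peak of a list. The 95% Wilson intervals cover counting error over genes only, and neighbouring genes share peaks.

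MiRNA genes had an IDR summit about as often as genes in general, and a relaxed summit more often. An IDR summit lay in the window of 7 of 261 miRNA genes (2.68%, 95% interval 1.31 to 5.43), against 2.45% of the 31563 annotated genes other than piRNA genes and 1.04% of protein-coding genes. In the pooled relaxed list 81 miRNA genes had a summit (31.0%, 25.7 to 36.9), against 20.9% of all genes other than piRNA genes and 18.9% of protein-coding genes. In the replicate 1 list the count was 70 (26.8%; background 18.2%), and in the replicate 2 list 72 (27.6%; background 20.7%). Both replicate lists held a summit at 41 miRNA genes (15.7%; background 10.3%).

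Transfer RNA genes, which RNA polymerase III transcribes, and snoRNA genes stood well above these shares. Transfer RNA genes had an IDR summit in 37.4% of cases and a pooled summit in 82.6%, snoRNA genes in 17.3% and 46.8%, and snRNA genes in 9.30% and 35.7%. Other ncRNA genes, with an IDR summit in 3.09%, were nearer to the miRNA genes. The bars of genes with a summit show the miRNA genes between protein-coding genes and snRNA genes in the pooled list.

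**Figure D1:**
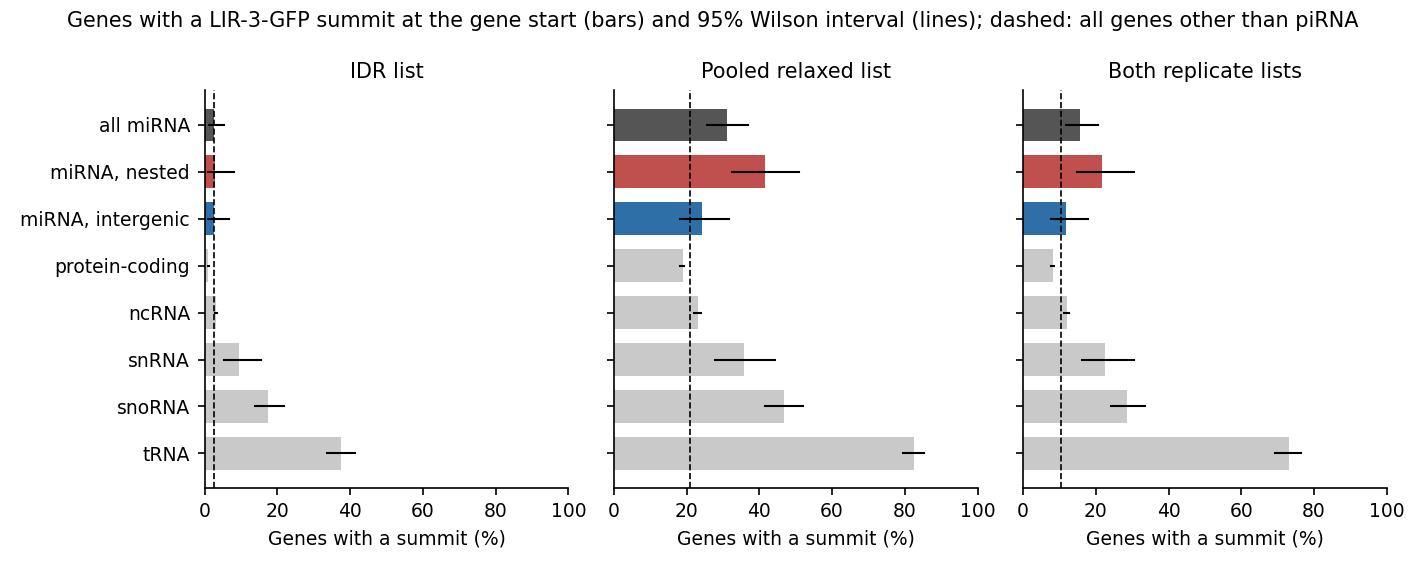
Percentage of genes with a summit from 500 bp upstream to 200 bp downstream of the gene start in the IDR list, the pooled relaxed list and both replicate lists. Bars are percentages over genes, lines are 95% Wilson intervals and the dashed line is the share of all genes other than piRNA genes; the nested miRNA genes stand at 41.5% in the pooled list and the intergenic ones at 24.3%.

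Of the 81 miRNA genes with a pooled summit, 38 had one in both replicate lists, 38 in 1 replicate list and 5 in neither. A further 25 had a summit in a replicate list without one in the pooled list. Together 106 miRNA genes (40.6%) had a summit in at least 1 list, and 155 (59.4%) had none. The share of all genes with a summit in at least 1 list was not counted, so the 40.6% has no background beside it.

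In the pooled list, peaks at miRNA genes were about as strong as peaks at gene starts in general, and in each replicate list they ranked somewhat higher. The 85 distinct pooled peaks at miRNA genes had a median rank percentile of 61.1, against 61.8 for the 5563 peaks at any gene start other than piRNA genes, 58.0 at protein-coding starts, 87.9 at snoRNA starts and 95.9 at tRNA starts. Of the 85, 16 (18.8%) had a rank percentile over 90, against 20.5% of peaks at all gene starts. In the replicate 1 list the median rank percentile was 71.3 at 62 miRNA peaks, against 59.9 at all gene starts, and 24.2% against 20.4% were over 90. In the replicate 2 list it was 66.9 at 69 miRNA peaks, against 61.4, and 27.5% against 19.9% were over 90. These differences were not tested, since peaks of neighbouring genes are not independent. The highest signal value at a miRNA gene was 123.8, in a pooled list that reached 5092.9. Within the IDR list itself the 6 miRNA peaks had a median rank percentile of 31.2.

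The strongest peak at a miRNA gene lay inside mir-4936 (WBGene00219264, chrIII:3249151-3249260, plus strand, intergenic). The pooled and IDR signal value was 123.8, place 255 of the pooled list, with the summit 74 bp downstream of the start of the 110-bp gene. Replicate 1 had 61.1 at 76 bp and replicate 2 had 62.9 at 56 bp, rank percentiles of 98.1 and 98.8. The replicates thus placed the summit within the gene at nearly equal rank. No other annotated gene, with piRNA genes not counted, started in that window, and the nearest protein-coding start, of nduf-9 on the opposite strand, was 650 bp away.

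The next peak was near the far edge of the window of mir-241 (WBGene00003335, chrV:14366188-14366283, minus strand, intergenic), a let-7 family gene that acts with mir-48 and mir-84 in larval timing. Its pooled signal value was 117.2 at place 297, with the summit 499 bp upstream. Replicate 1 had 69.9 at 486 bp upstream. Replicate 2 had 49.6 at 505 bp upstream, a rank percentile of 98.0, which falls just outside the window. Both replicates thus held a strong peak there, and the count of mir-241 as absent from the replicate 2 list rests on a few bases. The 146-bp ncRNA gene F56A12.8 had its start in the same window, 171 bp from the summit.

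A single IDR peak, chrX:13145102-13145517, served mir-54 and mir-55 (WBGene00003282 and WBGene00003283), which lie on the minus strand in an intron of F09A5.3, a gene on the plus strand. Its pooled signal value was 109.0 at place 353, with the summit 216 bp upstream of mir-54 and 386 bp upstream of mir-55. Replicate 1 had 65.9 and replicate 2 had 43.5, at rank percentiles of 98.5 and 97.1. The replicate summits lay 215 and 222 bp upstream of mir-54, so position varied by a few bases. The same summit was 523 bp upstream of mir-56, the next hairpin, and so just outside its window. The 59-bp ncRNA gene F09A5.11 started 39 bp from the summit.

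The peak at mir-80 (WBGene00003308, chrIII:8865270-8865367, minus strand, intergenic) had a pooled signal value of 101.7 at place 408, 116 bp upstream. Replicate 1 had 47.6 at 142 bp upstream and replicate 2 had 54.4 at 117 bp upstream. No other gene start shared the window, with piRNA genes not counted. mir-80 belongs to a large family of abundant miRNAs with mir-58.1, mir-81 and mir-82.

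At mir-51 (WBGene00003279, chrIV:11026013-11026112, minus strand, intergenic) the pooled signal value was 96.7 at place 458, with the summit 48 bp upstream. Replicate 1 had 59.9 at 91 bp upstream. Replicate 2 had a pair of summits, 49.5 at 149 bp downstream and 39.8 at 66 bp upstream. The upstream summits of both replicates lay farther upstream than the pooled one, and the stronger replicate 2 summit lay past the 100-bp gene. The 89-bp ncRNA gene F36H1.17 on the same strand started 59 bp before the pooled summit.

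The lowest signal value of the 7 was at mir-2214 (WBGene00194828, chrIII:7278715-7278778, plus strand), in an intron of B0361.11 on the same strand. Its pooled signal value was 90.2 at place 530, and the lowest value in the IDR list was 88.9. Replicate 1 had 37.9 at 19 bp upstream and replicate 2 had 58.7 at 34 bp downstream, against a pooled summit 2 bp upstream. The ncRNA gene B0361.13 shared the window. Just below the IDR list came mir-1830, in an intron of paic-1, with a pooled signal value of 78.9 at place 700.

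When the 552 strongest peaks of each replicate stood in for the IDR list, 6 miRNA genes had a summit among them in either replicate, but not the same 6. mir-4936 and mir-51 were found with both. mir-241, mir-54, mir-55 and mir-71 were found with replicate 1 alone, and mir-80, mir-2214, mir-52 and mir-77 with replicate 2 alone. In each case the share of miRNA genes was 2.30%, beside 2.24% of all genes other than piRNA genes for replicate 1 and 2.38% for replicate 2.

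None of the 6 IDR peaks at miRNA genes held a tRNA, snoRNA, snRNA or protein-coding gene start in its window, while 4 held an ncRNA gene start and 2 held no other. Among the 85 pooled peaks, 0 held a tRNA start, 3 a snoRNA start, 24 an ncRNA start and 11 a protein-coding start, and 51 held none. Most of the pooled peaks thus held no start of a gene of another biotype. Starts of piRNA genes and of other miRNA genes were not counted here, so such a peak can still be shared, as at mir-5592.1 with mir-5592.2.

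**Figure D2:**
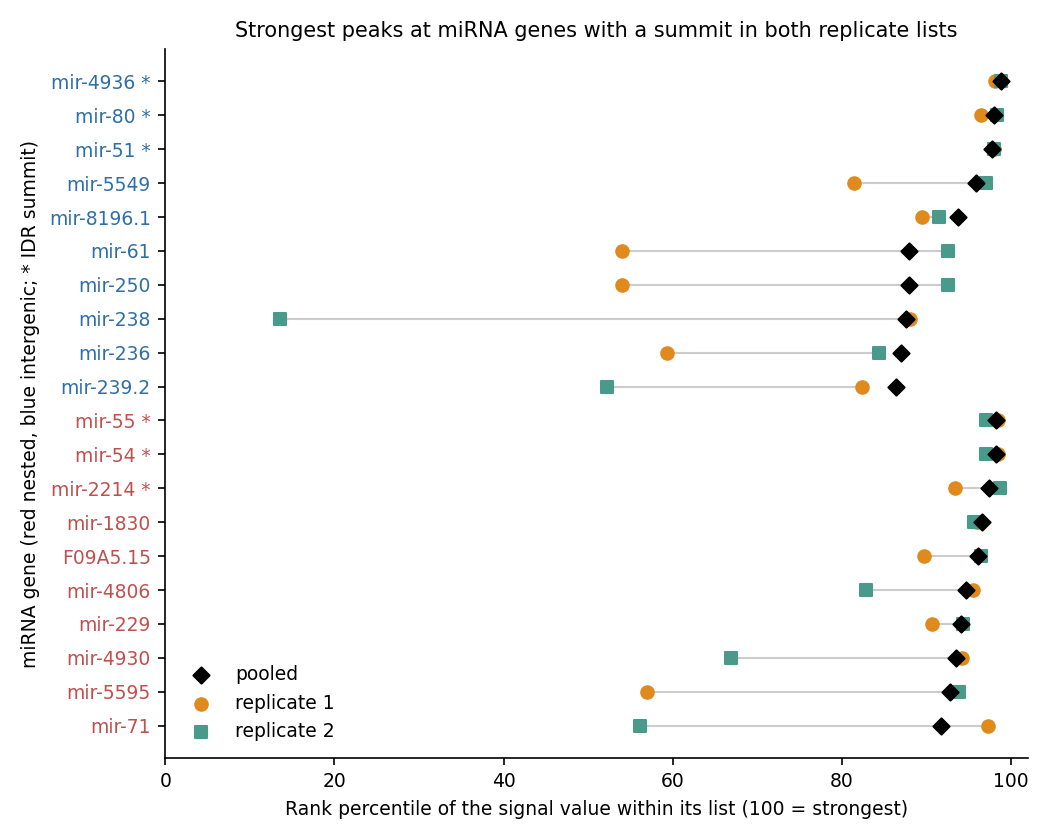
Rank percentile of the signal value in the pooled, replicate 1 and replicate 2 lists for the 10 nested and 10 intergenic miRNA genes of highest pooled signal value among those with a summit in both replicate lists. The genes with an IDR summit, marked with a star, have all 3 values at 93.4 or higher, while mir-238, mir-61 and mir-71 differ widely between replicates. Each value is that of the strongest summit in the window, which can lie in a different place in each list.

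Every member of the mir-51 family had a summit in at least 1 list, as did 40.6% of all miRNA genes. Of the 6 genes, 5 had a pooled summit, 5 a replicate 1 summit, 4 a replicate 2 summit and 3 an IDR summit. The IDR members mir-51, mir-54 and mir-55 are described above. At mir-56 the pooled signal value was 51.2 and the replicate 1 value 22.3, both downstream of the hairpin, with no replicate 2 summit in the window. At mir-53, on the same strand and upstream of mir-51, the pooled value was 34.0 at 64 bp upstream and the replicate 1 value 24.8 at 208 bp upstream. These were middling ranks, with percentiles of 61.1 and 71.4.

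mir-52 on chromosome IV had a summit in its window only in replicate 2, where the value was 48.2 at 341 bp upstream, a rank percentile of 97.8. Beyond the window, 262 bp downstream of its start, lay an IDR peak with a pooled value of 101.0, and 636 bp upstream lay a pooled peak of 77.4. Replicate 1 had summits near both of these, with values of 93.8 and 54.1, and replicate 2 listed no peak that overlapped the IDR peak. Peaks of high rank thus lay on either side of mir-52, but the replicates did not place them alike. The 6 genes lie at 3 places, so the family's counts are not 6 separate observations.

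The maps of 4 miRNA clusters show these positions. In the mir-54 to mir-56 cluster the IDR summit lay ahead of the first hairpin, and further pooled summits lay past the last one, with values of 51.2 and 74.5. The 74.5 summit was counted for F09A5.15, annotated on the opposite strand over mir-55.

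**Figure D3:**
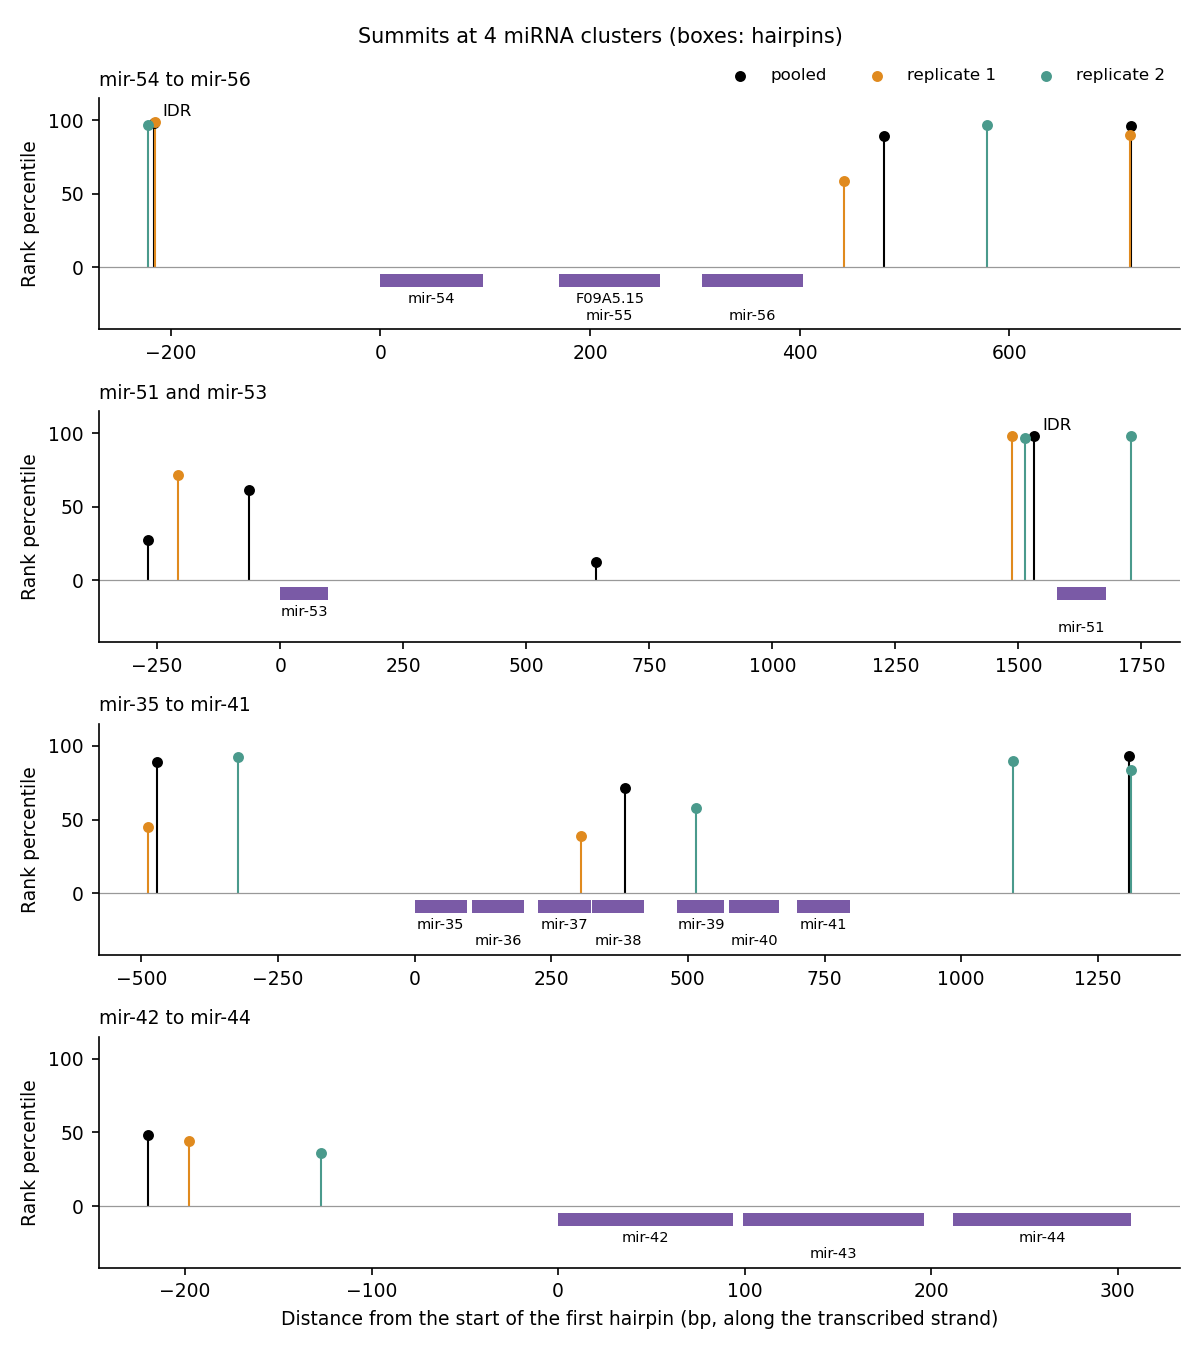
Summits in the pooled, replicate 1 and replicate 2 lists by rank percentile, against distance in bp from the start of the first hairpin along the transcribed strand, at 4 miRNA clusters; boxes are hairpins and IDR marks a summit also in the IDR list. Replicate summits coincide within a few bases ahead of mir-54 and scatter over the mir-35 to mir-41 hairpins.

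The mir-35 family, with the seed CACCGGG, was covered about as fully as the mir-51 family, at lower strength. Of its 8 genes 0 had an IDR summit, 7 had a pooled summit, 8 a replicate 1 summit and 7 a replicate 2 summit. The genes mir-35 to mir-41 lie in a row within 700 bp of starts in an intron of Y62F5A.9. Their windows overlap, so few peaks supply the counts.

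A single pooled peak, chrII:11537785-11538200, lay in the windows of mir-37, mir-38, mir-39, mir-40 and mir-41, with a signal value of 37.5 and a rank percentile of 71.2. It was the peak shared by most miRNA genes in the pooled list. In replicate 1 one peak of 19.5 (percentile 39.0) served mir-36 to mir-41, and in replicate 2 one of 18.3 (percentile 57.8) served mir-38 to mir-41. The replicate summits lay 304 and 514 bp past the start of mir-35, so they marked different hairpins.

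mir-35 itself had a separate pooled summit of 50.2 at 471 bp upstream, with 20.3 at 488 bp upstream in replicate 1 and 31.0 at 323 bp upstream in replicate 2. Its rank percentiles of 45.0 and 92.7 were far apart. mir-42, in another cluster on chromosome II with mir-43 and mir-44, shared a pooled peak of 30.8 with them, at 20.2 in replicate 1 and 15.7 in replicate 2. All 3 of those values ranked below the middle of their list.

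The let-7 family had 1 member with a pooled summit, mir-241, among 5 genes. mir-48, on the same strand of chromosome V, had no pooled summit but replicate 1 summits of 32.8 at 189 bp downstream and 16.6 at 31 bp upstream, and a replicate 2 summit of 24.5 at 210 bp upstream. The strongest replicate summits lay on opposite sides of the gene start. let-7, mir-84 and mir-795 had no summit in the window in any list. For let-7 this rests on the start used: Ensembl gives the start of a primary transcript, 1050 bp ahead of the hairpin. From the RefSeq hairpin start, an alternative added after the data were seen, let-7 had a pooled summit of 51.1 at 365 bp upstream, a replicate 1 summit of 20.8 at 453 bp and a replicate 2 summit of 36.8 at 363 bp. It was the only miRNA gene whose counts changed with that start.

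lin-4, the first miRNA described and a repressor of lin-14, lies in an intron of F59G1.4. It had a pooled summit of 30.3 at 289 bp upstream and replicate 1 summits of 25.3 at 472 bp and 21.1 at 265 bp upstream, the latter nearer the pooled one, with none in replicate 2. mir-237, which shares its seed, had no summit in the window, although a pooled peak of 74.0 lay 618 bp downstream of its start. The pooled value at lin-4 was near the middle of the list, at a percentile of 46.1.

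The seed GAGAUCA, carried by mir-80, was looked at after values had been seen. Of 6 genes with it, mir-80 was the only one with a pooled summit, and Y73B6A.17 had a replicate 1 summit of 16.4. mir-81, mir-82, mir-58.2 and mir-2209.1 had none in any list. mir-58.1, whose seed GAGAUCG differs in the last base, had a pooled summit of 29.0 at 30 bp downstream and a replicate 1 value of 33.7 at 41 bp downstream, with no replicate 2 summit. mir-1, a muscle miRNA, and lsy-6, which acts in a taste neuron, had no summit in the window in any list.

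Outside these families, several miRNA genes had strong peaks that fell short of the IDR list. Among nested genes, mir-4806 in ras-1 had a pooled value of 65.3, with 43.4 in replicate 1 and 24.0 in replicate 2. mir-4930 in Y38F2AR.10 had 60.1, with 40.1 and 19.8, and mir-5595 in nurf-1 had 57.9, with 22.0 and 33.2, so the stronger replicate differed. mir-229 in gcn-1 had 62.6, with 34.2 and 34.1, and mir-71 in ppfr-1 had 55.4, with 53.8 and 18.1. mir-71, a miRNA known for its part in lifespan and stress resistance, thus ranked at 97.3 in replicate 1 and 56.1 in replicate 2. mir-90, in K01F9.2, had 67.1 in the pooled list and 39.3 in replicate 2, but no replicate 1 summit in the window.

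Among intergenic genes, mir-5549 had a pooled value of 73.1, with 28.1 in replicate 1 and 43.1 in replicate 2. Its peak also lay at the starts of eef-1A.1, a translation elongation factor gene, and rfc-4, a replication factor C subunit gene. mir-8196.1 had 61.3, with 32.9 and 29.7. mir-238 had 48.6 at 29 bp downstream, with 31.8 at 143 bp upstream in replicate 1 and 13.9 at 204 bp upstream in replicate 2. Neither replicate value was thus at the place of the pooled summit, and the replicate 2 value had a rank percentile of only 13.6. mir-236 had 47.9, with 22.4 and 24.7, and mir-239.2 had 47.3, with 28.5 and 17.6. The replicate ranks of mir-8196.1 were close, at percentiles of 89.5 and 91.5, and those of mir-238 were the farthest apart of these 5.

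Nested miRNA genes had a pooled summit more often than intergenic ones. The counts were 44 of 106 (41.5%, 32.6 to 51.0) and 37 of 152 (24.3%, 18.2 to 31.7), beside 20.9% of all genes other than piRNA genes, and the intergenic share was near that background. The same order held in both replicate lists together, with 23 nested (21.7%) and 18 intergenic genes (11.8%). In the IDR list the shares were nearly equal, with 3 nested (2.83%) and 4 intergenic genes (2.63%). The difference was not tested, because clustered genes share peaks.

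Counted by locus, with miRNA genes of a class whose starts lay within 10 kb joined, 34 of 87 nested loci (39.1%, 29.5 to 49.6) and 29 of 111 intergenic loci (26.1%, 18.9 to 35.0) had a pooled summit. These intervals overlap. Nested genes on the strand of their host had a summit in 30 of 74 cases (40.5%), and those on the opposite strand in 14 of 32 (43.8%). Within introns the count was 42 of 97 (43.3%), and for genes touching an exon 2 of 9. Other small RNA classes did not show nested genes higher. For ncRNA genes the shares were 22.1% nested and 23.6% intergenic, for snoRNA genes 95 of 216 and 62 of 124, and for tRNA genes 81.7% and 83.9%.

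Pooled summits at nested miRNA genes were also frequent outside the window. In the 250 bp before the start there were 21.7 pooled summits per 100 nested genes, 11.8 per 100 intergenic genes and 8.78 per 100 genes other than piRNA genes. Over the 16 bins of 250 bp, nested genes were above all genes other than piRNA genes in 15 and above intergenic miRNA genes in 13. From 750 to 999 bp downstream nested genes had 14.2 per 100 and intergenic genes 5.26, but from 1000 to 1249 bp they had 8.49 and 10.5. A summit was counted once for each gene, so clustered genes counted the same summit again. From 750 to 999 bp downstream, a summit of 59.6 was counted for both mir-38 and mir-39, and one of 50.6 for both mir-40 and mir-41.

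**Figure D4:**
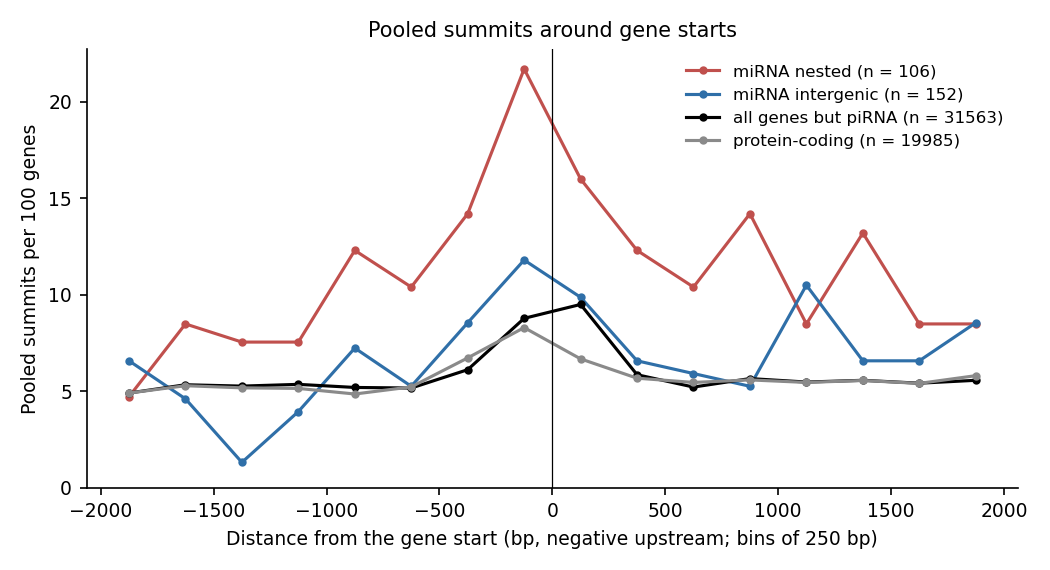
Pooled summits per 100 genes in bins of 250 bp against distance in bp from the gene start, for nested and intergenic miRNA genes, all genes other than piRNA genes and protein-coding genes. Nested miRNA genes peak at 21.7 in the bin before the start and stay above the line for all genes over most of the range shown. A summit is counted once for each gene, so clustered genes count the same summit again.

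Pooled summits at miRNA genes lay mostly upstream of the start. The strongest summit in the window was upstream at 57 of 81 genes (70.4%), with a median of 110 bp upstream, in a window that itself is mostly upstream. It fell inside the gene at 14 (17.3%), of which 4 were nested and 10 intergenic. It lay within 100 bp of the start at 29.

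**Figure D5:**
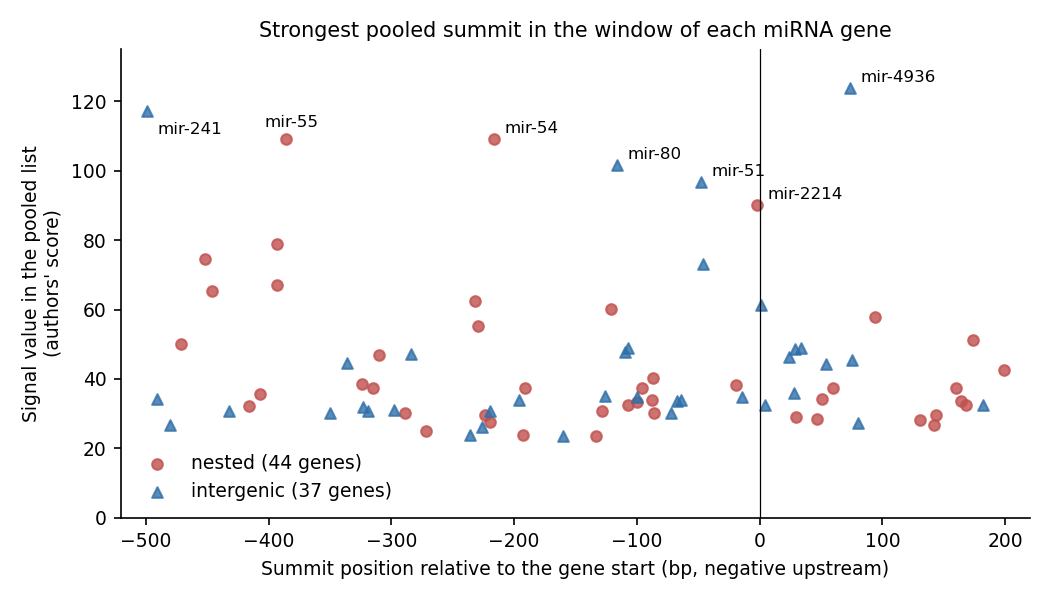
Signal value of the strongest pooled summit in the window against its position in bp from the gene start, for 44 nested and 37 intergenic miRNA genes. The 7 genes with an IDR summit are named and spread from 499 bp upstream to 74 bp downstream.

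Replicate summits lay farther apart at miRNA genes than at other genes by the median, a difference that was not tested. At the 41 miRNA genes with a summit in both replicate lists the strongest summits were a median of 71.0 bp apart, against 53.0 bp at 3207 other genes. They were within 50 bp at 10 of 41 (24.4%), against 48.2%, and over 200 bp apart at 13. Clustered genes are not separate observations here, since mir-38, mir-39, mir-40 and mir-41 share 1 pair of replicate summits over 200 bp apart. The strongest summits are also not always the nearest pair, as at mir-51, where a weaker replicate 2 summit lay nearer that of replicate 1. Across these 41 genes the replicate signal values had a Spearman rank correlation of 0.55, given as a description, since genes in a cluster share peaks and the genes share a library. The rank percentiles differed by a median of 16.9.

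Peaks shared by several miRNA genes numbered 8 in the pooled list and covered 20 genes. Besides those of mir-37 to mir-41, mir-42 to mir-44, and mir-54 with mir-55, they were at mir-61 with mir-250 (48.9), mir-64 with mir-229 (35.7), mir-73 with mir-74 (30.3), mir-5592.1 with mir-5592.2 (32.6), and mir-56 with F09A5.15 (51.2), all signal values of the pooled list. The replicate 1 list had 7 shared peaks, among them one of 19.9 at mir-64, mir-65 and mir-66 and one of 20.6 at mir-1819 and mir-2212 that the other lists did not share. The replicate 2 list had 11, among them a pair of 17.5 and 13.3 at mir-86 and mir-8211 and one of 31.0 at mir-35 and mir-36. For mir-61 and mir-250 the shared peak had 21.5 in replicate 1 and 30.9 in replicate 2, rank percentiles of 54.0 and 92.6. The genes of mir-5592.1 with mir-5592.2 and of mir-56 with F09A5.15 lie on opposite strands, and the other shared peaks serve genes on 1 strand.

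With starts within 10 kb joined irrespective of class, 100 miRNA genes formed 36 clusters of 2 or more and 161 stood alone. A pooled summit was found at 35 of the 100 clustered genes (35.0%) and 46 of the 161 single ones (28.6%). Of the 36 clusters, 16 had at least 1 gene with a pooled summit, and in 7 every gene had one. The largest cluster, 11 genes on the X chromosome from mir-4807 to mir-4921, had no summit in the window of any gene in any list.

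By chromosome, pooled summits were most frequent on chromosome II, at 26 of 49 miRNA genes (53.1%), where 21.1% of all genes other than piRNA genes had one. On the X chromosome, with the most miRNA genes, the count was 15 of 74 (20.3%), beside 22.6% of all genes there. The counts were 11 of 33 on chromosome I (33.3%, beside 25.8%), 10 of 27 on III (37.0%, beside 26.2%), 11 of 50 on IV (22.0%, beside 19.1%) and 8 of 28 on V (28.6%, beside 15.1%). Chromosome II holds the mir-35 to mir-41 and mir-42 to mir-44 clusters, whose genes share peaks. No IDR summit lay at a miRNA gene of chromosome I or II, and chromosome III held 3 of the 7. The Wilson intervals of these IDR shares were 0 to 10.4% on I, 0 to 7.27% on II and 3.85 to 28.1% on III. Those of I and II include the 2.45% of all genes other than piRNA genes over the genome, and that of III does not. The IDR share of all genes was not counted by chromosome, so a difference between chromosomes cannot be read from these few genes.

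Around the summit, peaks at miRNA genes were somewhat richer in G and C than relaxed peaks in general. Within 50 bp of the summit the median GC content was 44.6% at the 85 pooled miRNA peaks and 40.6% at all 20337 nuclear pooled peaks. At the 6 IDR miRNA peaks it was 55.4%, against 49.5% at the 530 nuclear IDR peaks. The windows of mir-241 (66.3%), mir-80 (63.4%) and mir-54 with mir-55 (59.4%) were the highest of the 6, as their printed letters show.

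Promoter words of tRNA genes were not common at miRNA peaks. The B box lay within 50 bp of the summit at 4 of 85 pooled miRNA peaks (4.71%), against 3.71% of all pooled peaks and 26.2% of IDR peaks. The A box lay there at 12 (14.1%), against 8.90% and 35.7%. The word TGCGTCTC, searched on both strands, lay at 3 (3.53%: mir-229, mir-5595 and mir-8186.2), against 1.48% and 4.53%. These are matches of letters, and the shares for the B box were near those of pooled peaks in general.

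The 4 B box matches were at mir-51, mir-238, mir-1829.2 and mir-4812. At mir-51 the match began 51 bp upstream of the gene start and spanned the summit itself, from 3 bp before it to 5 bp after it, with a run of 4 T after a further 11 bases. At mir-1829.2 and mir-4812 an A box match at the summit was followed by a B box match on the same strand, 40 and 41 bp after the summit. The pooled signal values there were 40.4 and 33.9.

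At mir-4936 a B box match lay at the edge of the searched window, from 44 to 52 bp after the summit, so it was missed within 50 bp. It began 118 bp from the start, past the end of the 110-bp gene, and a run of 4 T followed after 13 bases. With 75 bp searched on either side, a width chosen after the data were seen, the B box was at 6 of 85 pooled miRNA peaks (7.06%), against 5.32% of all pooled peaks, and at 2 of the 6 IDR miRNA peaks, against 38.3% of all IDR peaks.

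Protein genes of the miRNA pathway, and well-known target genes, were read in the same way. The list had 36 names, of which 34 matched a protein-coding gene. An IDR summit was found at 2 (5.88%), against 1.04% of protein-coding genes, and a pooled summit at 11 (32.4%), against 18.9%. With so few genes the IDR share rests on those 2. Both replicate lists held a summit in the window at 5 (14.7%), against 8.13% of protein-coding genes, whether or not the 2 summits lay at the same place.

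lin-66, a developmental timing gene that acts to lower lin-28, had a pooled value of 101.3 at 431 bp upstream, with 70.5 in replicate 1 and 38.2 in replicate 2. vig-1, which encodes a protein of the miRNA effector complex, had 89.1 at 401 bp upstream, with 42.2 and 40.2. puf-9, a Pumilio-type repressor that acts with let-7, had 84.0, with 47.4 and 45.7, just under the IDR list. Both replicates thus ranked these 3 genes high, at percentiles from 95.1 to 98.7.

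Genes of the processing steps were weaker. drsh-1, which encodes Drosha, had a pooled value of 43.4 and a summit in replicate 2 alone. Its partner pash-1 had 25.4 at 11 bp downstream, with a replicate 1 summit at 12 bp downstream. The replicate 2 summit at pash-1 lay elsewhere, 451 bp upstream. dcs-1, a decapping scavenger linked to miRNA turnover, had 40.6 and a summit in replicate 1 alone. lin-14, the target of lin-4, had 37.6, with 19.7 in replicate 1 and 21.2 in replicate 2. tsn-1, a Tudor nuclease of the effector complex, had 32.3 and a summit in replicate 2 alone. ain-2, a GW182-type protein, had 27.3 with no replicate summit. dcr-1, which encodes Dicer, had no summit in any list, and the Argonaute gene alg-1 had only a replicate 1 summit of 16.3.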

How the data were processed

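Peaks were taken from the deposited narrowPeak lists on ce11. Per the file listing, the authors called peaks and background as IDR input for each replicate and for the pooled replicates with a control alignment, and derived the IDR list from these. Aligner, caller and version names are not given in the sources, and no control, mock or untagged data are analysed here. Signal values were used as deposited, as the authors' score of unstated scale. The deposited −log10 q-value was not used to select peaks. In the pooled list it was 3.18 at every miRNA gene with an IDR summit, but many relaxed peaks had low values. It was 0.269 at the peak of mir-37 to mir-41, 0.173 at mir-53, 0.105 at mir-42 and 0.0980 at lin-4. The deposited summit offset gave the summit (start plus offset, counted from 1). One label field names lir-3 where the description names an antibody to GFP. Lists on ce10 were not used. Depth is unknown.

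Genes came from Ensembl release 115 (WBcel235), sequences and mature miRNAs from RefSeq, which had a record for 260 of 261 genes. A summit was assigned to every gene whose window held it. No test was made: the series has 1 group, and shares carry 95% Wilson intervals beside the share of all genes. The text names every miRNA gene with an IDR summit, the 10 nested and 10 intergenic genes of highest pooled signal value with a summit in both replicate lists, genes at shared peaks, the let-7, lin-4, mir-35 and mir-51 seed groups with mir-1, lsy-6 and mir-58, and pathway genes with an IDR summit; other named genes were picked after their values were seen. Members and lists were chosen with earlier results of these data known. Counting was tested on simulated summits and returned the placed count in 20 of 20 runs. Scripts ran in Python 3.11.15 with pandas 2.3.3 and numpy 2.4.6. The Spearman rank correlation came from scipy 1.17.1, and plots from matplotlib 3.10.9. Alternatives were other windows, interval overlap, stronger peaks only, each replicate alone, other definitions of nesting and sharing and, added after the data were seen, the RefSeq hairpin start and a wider motif window.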

Additional observations from a re-analysis of the deposited data

How the results depend on the processing

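Of 64 alternative values, 45 stayed within 1.5 times the reported count or within the SD of the replicate medians (3.11), and 19 moved. The 19 include the replicate agreement, whose alternative is a different measure and was counted as moved without either rule. With 200 bp upstream in place of 500, IDR miRNA genes numbered 4, genes with a summit in both replicate lists 19, nested genes with a pooled summit 29 (intergenic 25), shared peaks 3, and pathway genes 0 in the IDR list and 4 in the pooled list. With 1000 bp upstream, shared peaks numbered 13 and pathway genes 4 in the IDR list and 18 in the pooled list. With the stronger 50% of each list (276 IDR peaks), IDR miRNA genes numbered 1, genes in both replicate lists 27 and pathway genes 0 in the IDR list and 7 in the pooled list, while the median rank percentile was 83.2, since weaker peaks were removed. Fewer peaks or a smaller window give fewer genes by construction, so the share of all genes other than piRNA genes is given beside the IDR share. With 200 bp upstream the miRNA share was 1.53%, beside 1.94%, and with the stronger 50% it was 0.383%, beside 1.26%. In these 2 settings miRNA genes were thus below the background. With 1000 bp upstream the shares were 3.07% and 2.94%, and with interval overlap 3.45% and 2.84%.

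With 1 replicate's list in place of the pooled list, and as many of its strongest peaks as the IDR list holds in place of that list, the lowest and highest values were 6 and 6 IDR miRNA genes, 70 and 72 genes with a relaxed summit, 66.9 and 71.3 for the median rank percentile, and 1 and 1 pathway gene with an IDR summit. For replicate agreement the rank percentiles differed by a median of 16.9 in place of a Spearman rank correlation of 0.55, a different measure. Nested genes had more pooled summits than intergenic ones per gene under each window and each replicate. With the RefSeq hairpin start, the numbers were 7 IDR, 82 pooled and 42 in both replicate lists. No paired analysis was possible because the 2 replicates form 1 group. Depth, control signal and animals without the tagged protein were not analysed here, so how weak a peak could be found is unknown.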
